A study of Arabidopsis thaliana with 6 samples.

Results

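LHCA1 to LHCA6 are the nuclear genes for the light-harvesting chlorophyll-binding proteins of photosystem I in Arabidopsis thaliana. They were taken by gene identifier, LHCA1 (AT3G54890), LHCA2 (AT3G61470), LHCA3 (AT1G61520), LHCA4 (AT3G47470), LHCA5 (AT1G45474) and LHCA6 (AT1G19150), and are 6 of the 36917 genes in the table. RNA was measured in 6 libraries, 3 labelled bbx14-1 and 3 wild type, and both groups have Col-0 as their background. All seedlings were stratified at 4°C for 3 days, received 2 h of white light at 100 µmol photons per square metre and second, stayed in darkness for 3 days and were lit for 1 day, up to day 4. The bbx14-1 line is named for BBX14, the gene of a B-box transcription factor; the labels give neither its lesion nor how many lines or plants were sampled. Values are normalized counts, that is, reads per gene after scaling each library by its size factor. Since no label says that a group's libraries came from separate cultures, the p-values reflect the spread between these libraries, and that spread may be technical.

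Photosystem I sits in the thylakoid membrane of the chloroplast and uses light to pass electrons from plastocyanin to ferredoxin. Its core carries a crescent of antenna proteins on one side, made of an LHCA1 and LHCA4 heterodimer and an LHCA2 and LHCA3 heterodimer, and LHCA3 and LHCA4 hold the chlorophylls that absorb farthest into the red. LHCA5 and LHCA6 are minor relatives that link photosystem I to the chloroplast NADH dehydrogenase-like (NDH) complex, which takes part in cyclic electron flow. Seedlings grown in darkness hold etioplasts without a working photosynthetic apparatus, and light switches on the nuclear genes for antenna proteins as these turn into chloroplasts.

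The 6 genes lie on chromosomes 1 and 3 of the assembly TAIR10.1. LHCA1 is at chr3:20339504-20341176 on the minus strand in 3 exon blocks, LHCA2 at chr3:22745514-22747444 on the plus strand in 4, and LHCA3 at chr1:22699715-22701412 on the plus strand in 2. LHCA4 is at chr3:17493343-17495033 on the minus strand in 4 exon blocks, LHCA5 at chr1:17179250-17180806 on the plus strand in 6, and LHCA6 at chr1:6612630-6613972 on the plus strand in 3. Over the 15 pairs, identity of the aligned coding bases ran from 58.9% for LHCA3 and LHCA6 to 66.3% for the heterodimer partners LHCA1 and LHCA4. LHCA2 and LHCA6 shared 63.5%. The longest run of coding bases shared exactly by any pair was 20, between LHCA3 and LHCA6. Such runs bear on how easily a read could be assigned to the wrong member. Capitals mark this run in coding bases 179 to 238 of LHCA3 and 215 to 274 of LHCA6, 5′ to 3′ from the start codon.
LHCA3: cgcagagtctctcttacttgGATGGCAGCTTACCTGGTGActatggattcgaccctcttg
LHCA6: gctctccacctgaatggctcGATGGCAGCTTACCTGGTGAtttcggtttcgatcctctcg

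No stretch of 50 bases from the exons of LHCA1, LHCA3, LHCA4, LHCA5 or LHCA6 was found elsewhere in the genome. Of the 1212 such stretches of LHCA2, 138 (11.4%) had an exact copy, all on chromosome 5 between 10372549 and 10373370. Most of that interval lies in AT5G28450, annotated as a chlorophyll A-B binding family gene. AT5G28450 had 28.8, 27.9 and 28.0 normalized counts in the libraries labelled bbx14-1, against 30.3, 45.2 and 54.5 in wild type. LHCA2 had 1122 to 2727 times as many counts as AT5G28450 in a library. How reads with several matches were counted is not given in the sources used here, so AT5G28450 is uncertain, and LHCA2 reads from the shared stretches may have been left out.

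The 250 bases before each annotated start were searched on both strands for the G-box CACGTG, the I-box GATAAG, the GLK-type letters AGATTCT and the CCAAT box CCAAT, and none of the matches overlapped. G-boxes, I-boxes and sites of the GLK activators are known from promoters of light-regulated plant genes, and the CCAAT box from promoters of many kinds. The CCAAT box was present in 5 of the 6 members and in 46.0% of 27443 promoters of this length. The G-box was present in LHCA4 and in 6.49% of promoters. The I-box was present in LHCA1, at 165 and 49 bases before the start, and in 12.3% of promoters. For GLK only the letters AGATTCT were searched, and these were present in 0 members and in 6.22% of promoters. Shown here, read 5′ to 3′ along the gene's strand, are the promoters with the most and the fewest matches, LHCA4 (chr3:17495034-17495283, minus strand) and LHCA5 (chr1:17179000-17179249, plus strand), taken from TAIR10.1. Capitals mark the matches.
LHCA4 promoter: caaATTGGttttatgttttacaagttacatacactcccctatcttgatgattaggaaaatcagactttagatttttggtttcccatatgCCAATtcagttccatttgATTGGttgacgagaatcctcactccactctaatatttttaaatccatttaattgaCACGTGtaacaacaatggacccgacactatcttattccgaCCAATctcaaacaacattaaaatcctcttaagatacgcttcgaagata
LHCA5 promoter: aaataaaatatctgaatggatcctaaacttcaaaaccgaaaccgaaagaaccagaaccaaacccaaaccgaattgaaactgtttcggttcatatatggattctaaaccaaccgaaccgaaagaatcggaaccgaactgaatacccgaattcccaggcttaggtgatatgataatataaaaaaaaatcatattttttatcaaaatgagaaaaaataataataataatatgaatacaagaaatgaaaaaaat

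In the LHCA4 promoter the G-box starts 88 bases before the gene, and the 4 CCAAT boxes start 247, 161, 143 and 48 bases before it. LHCA2 and LHCA3 have 1 CCAAT box each, 214 and 34 bases before the start, LHCA1 has 1 at 121 bases, and LHCA6 has 2 at 106 and 74 bases. The LHCA5 window holds none of the letters searched. The windows of LHCA1 and LHCA6 also hold exons of a neighbouring gene, AT3G54900 and AT1G19140, and are not shown. A match is a description of the letters and does not show binding.

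Depth was 25505859 to 32621183 reads per library labelled bbx14-1 and 20939505 to 32064650 per wild-type library. Plastid genes took 49.6% to 56.7% and 52.6% to 55.9% of these reads, which left 10970954 to 14677324 and 9816440 to 14006495 reads on nuclear genes. BBX14 itself had 649, 761 and 892 normalized counts in the libraries labelled bbx14-1 and 540, 683 and 517 in wild type, so its mRNA was not lower under the bbx14-1 label (limma, adjusted p = 0.0726). That p was 0.0199 without wild-type replicate 2 and 0.0306 without bbx14-1 replicate 1, with BBX14 higher in the libraries labelled bbx14-1 each time. A count over all exons cannot show whether the transcript is intact. The group is therefore called the libraries labelled bbx14-1, and every direction is relative to this label.

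No antenna gene passed the test: 0 of the 6 members were called, where limma on log2(normalized count + 1) called 883 of 19003 genes (4.65%). Under the bbx14-1 label 2.51% of genes were called higher and 2.14% lower. A gene was called at an adjusted p under 0.05, with Benjamini-Hochberg adjustment across the 19003 genes. LHCA6 was the single member with an unadjusted p under 0.05, as had 16.7% of all genes. The voom variant of limma, run on recovered reads, also called 0 of the 6, and 4.73% of all genes. The fold changes, as bbx14-1 minus wild type, were positive for 6 of 6 members, with a median of 0.066 on the log2 scale. Over all genes tested 50.5% were positive and the median was 0.0029. In bulk seedlings, fewer cells of a type and less RNA per cell cannot be told apart.

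LHCA1, a partner in the heterodimer of the crescent's LHCA1 and LHCA4 side, had 88277, 83660 and 97773 normalized counts in the libraries labelled bbx14-1 and 86179, 87450 and 89113 in wild type. The groups overlapped, with the highest and the lowest library both labelled bbx14-1. The mean was 89903 ± 7196 in the libraries labelled bbx14-1 and 87581 ± 1471 in wild type (SD, n = 3 each). On the log2 scale LHCA1 differed by 0.035 ± 0.12 (SE), with a 95% interval of -0.22 to 0.29 (limma, adjusted p = 0.930). That interval spans 0.857-fold to 1.22-fold.

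LHCA4 had 137617, 133352 and 138581 normalized counts in the libraries labelled bbx14-1, against 135121, 133436 and 138298 in wild type. It varied least of the 6 members, and each group's values lay almost on top of the other's. The means were 136517 ± 2783 and 135618 ± 2469 (SD, n = 3 each), which is 0.0095 on the log2 scale with a 95% interval of -0.27 to 0.29 (limma, adjusted p = 0.985). The standard error in the fit, 0.14, was 6.001 times the one that its own 6 values give, 0.023, since limma draws the variance of each gene towards that of other genes. Without the variance trend it was 0.096. LHCA4 overlaps AT3G47460 on the opposite strand. AT3G47460 had 98.9 to 114 normalized counts under the bbx14-1 label and 72.9 to 115 in wild type, far below LHCA4.

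LHCA2, in the heterodimer with LHCA3, had 60930, 62561 and 76377 normalized counts in the libraries labelled bbx14-1 and 63027, 65844 and 61125 in wild type. The first and second of the bbx14-1 values lie below the wild-type median, and the replicate 3 value lies above every other library. The means were 66622 ± 8487 and 63332 ± 2375 (SD, n = 3 each), and the log2 fold change was 0.066 with a 95% interval of -0.18 to 0.32 (limma, adjusted p = 0.853).

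LHCA3, the other member of that pair, had 67960, 69079 and 79686 normalized counts in the libraries labelled bbx14-1, against 67359, 68976 and 70232 in wild type. Replicate 3 of the bbx14-1 label again stood above the other 5 libraries, which spanned a narrow range. The means were 72242 ± 6471 and 68856 ± 1440 (SD, n = 3 each), with a log2 fold change of 0.066 and a 95% interval of -0.18 to 0.31 (limma, adjusted p = 0.851).

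LHCA5, which helps to attach the NDH complex to photosystem I, had 1355, 1516 and 1546 normalized counts in the libraries labelled bbx14-1 and 1331, 1369 and 1517 in wild type. The groups overlapped and had nearly the same spread. LHCA5 averaged 1472 ± 103 and 1406 ± 98.1 (SD, n = 3 each), a difference of 0.067 ± 0.095 (SE) on the log2 scale with a 95% interval of -0.13 to 0.26 (limma, adjusted p = 0.798). LHCA5 overlaps AT1G45545 on the opposite strand, which had 31.2 to 45.1 normalized counts in the libraries labelled bbx14-1 and 36.4 to 44.6 in wild type.

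LHCA6, the other attachment protein of the NDH complex, was the member with the largest difference. It had 632, 684 and 715 normalized counts in the libraries labelled bbx14-1, against 513, 554 and 597 in wild type. Every library labelled bbx14-1 was above every wild-type library, and LHCA6 was the 1 member of 6 whose groups did not overlap. Of all genes tested, 21.0% had groups without overlap, 10.4% with the libraries labelled bbx14-1 higher and 10.6% with them lower. The means were 677 ± 42.2 and 555 ± 42.0 (SD, n = 3 each), a difference of 0.29 ± 0.11 (SE) on the log2 scale with a 95% interval of 0.061 to 0.51, or 1.22-fold with an interval of 1.04-fold to 1.43-fold. The difference did not pass the test over all genes (limma, unadjusted p = 0.0152, adjusted p = 0.158; voom, adjusted p = 0.151). Without bbx14-1 replicate 3 the unadjusted limma p was 0.0541, and without wild-type replicate 1 it was 0.0770.

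LHCA6 rested on 636 to 790 reads per library labelled bbx14-1 and 441 to 610 per wild-type library. Counting error alone was then at most 3.97% and 4.76% of its value, below the spread between libraries of 6.24% in the libraries labelled bbx14-1 and 7.58% in wild type. For LHCA5, with 1411 to 1695 and 1090 to 1583 reads, counting error was at most 2.66% and 3.03%. The 4 abundant members had at least 52421 reads in every library, where counting error is under 0.437%. These errors cover counting alone, since reads are not independent molecules.

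**Figure D1:**
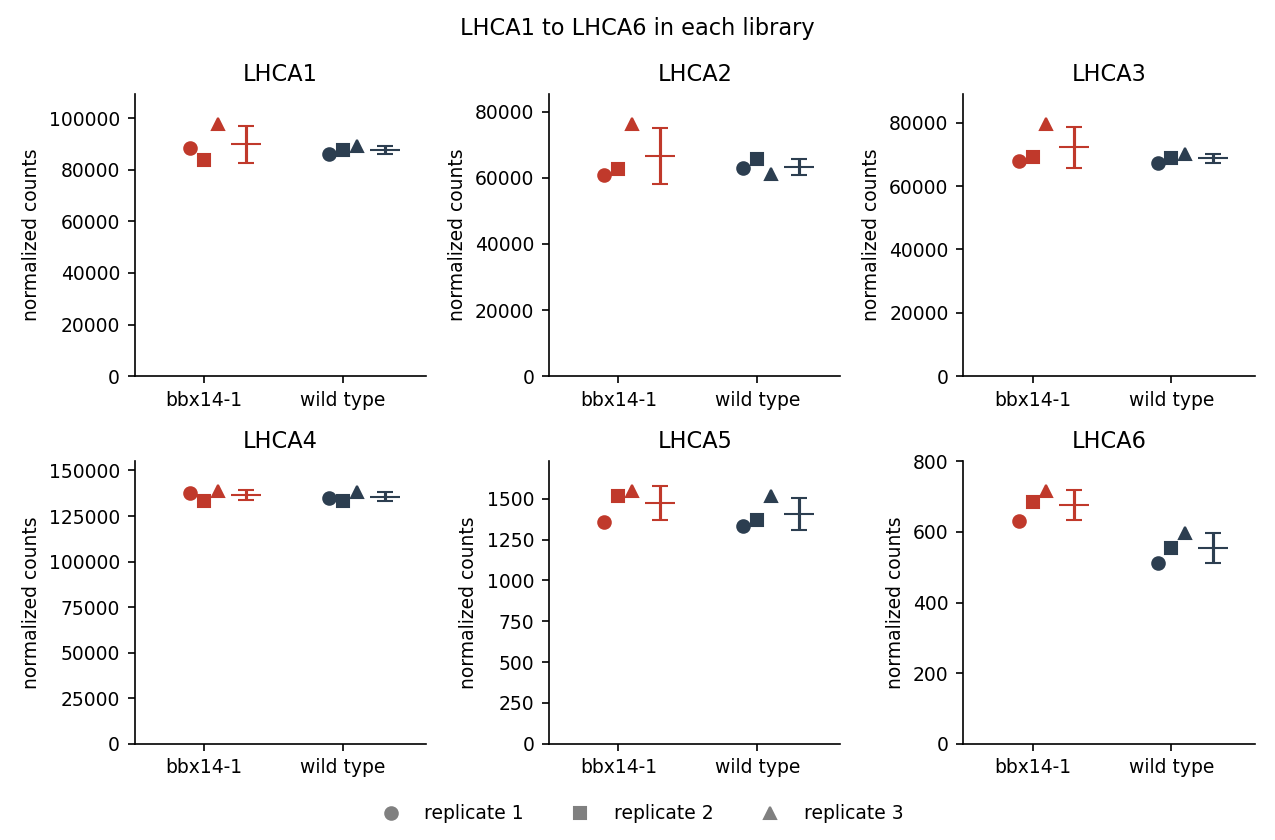
Normalized counts (y axis, from 0) of each member in the 3 libraries labelled bbx14-1 and the 3 wild-type libraries (x axis); symbols are replicates, and the line with bars is the mean ± SD. LHCA6 is the member whose groups do not overlap (632 to 715 against 513 to 597), and replicate 3 of bbx14-1 is the highest library in all 6 panels.

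The libraries labelled bbx14-1 were less alike than the wild-type libraries for the 3 antenna genes LHCA1, LHCA2 and LHCA3. The SD in the libraries labelled bbx14-1 was 4.89, 3.57 and 4.49 times that in wild type for these 3 genes, in that order. For LHCA4, LHCA5 and LHCA6 the SDs of the groups were close, at 1.13, 1.05 and 1.00 times. The wider spread came with replicate 3, which also stood apart over all genes, plastid genes included. Its reads differed from those of bbx14-1 replicates 1 and 2 with a chi-square per degree of freedom of 26.6 and 30.01, against 11.7 between those replicates and 7.78 to 14.7 between wild-type libraries. Replicate 3 was the highest of the 6 libraries for 6 of 6 members, as it was for 17.6% of all genes tested. That library had the lowest share of plastid reads, 49.6%. The part of this in the chi-square values and in the antenna values was not tested. As a share of the nuclear normalized counts, replicate 3 was the highest library for 3 of the 6 members, LHCA1, LHCA2 and LHCA3. LHCA4 was then highest in bbx14-1 replicate 1, and LHCA5 and LHCA6 in bbx14-1 replicate 2.

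Without bbx14-1 replicate 3 the log2 fold changes of the 4 abundant members were all slightly negative, at -0.027 for LHCA1, -0.036 for LHCA2, -0.0069 for LHCA3 and -0.0014 for LHCA4. LHCA5 and LHCA6 were positive, at 0.031 and 0.25, so 2 of 6 members were positive. The positive sign of LHCA1 to LHCA4 thus rested on 1 library, and LHCA4 was also at -0.0021 without wild-type replicate 2. Quantile normalization, which gives every library the same distribution of values, placed LHCA1 at -0.16, LHCA3 at -0.10 and LHCA4 at -0.073, with LHCA2 at 0. LHCA6 was at 0.30 and LHCA5 at 0.086 under that scaling, with the same sign as reported.

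**Figure D2:**
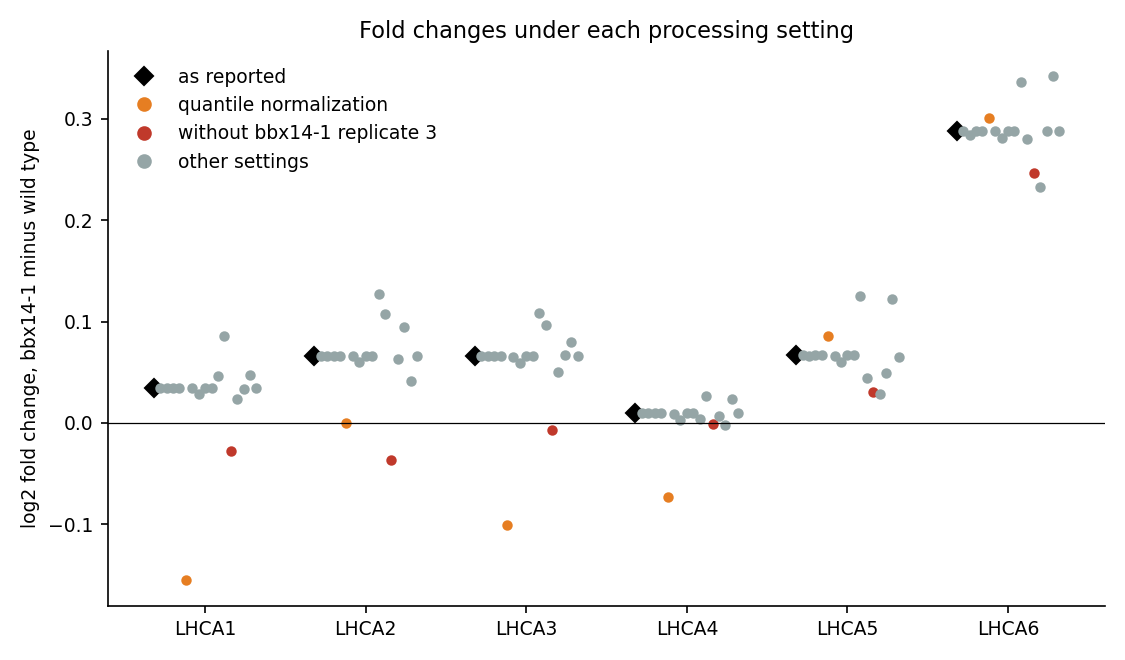
Log2 fold change of each member, bbx14-1 minus wild type (y axis), as reported (black diamond) and under 16 alternative settings (circles). LHCA6 stays between 0.23 and 0.34, while LHCA1 to LHCA4 lie near 0 and are negative or at 0 with quantile normalization (orange) and negative without bbx14-1 replicate 3 (red).

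For a rough comparison between genes, levels were divided by the summed length of all annotated exons. LHCA4 had the highest level, 105418 ± 2149 normalized counts per kb in the libraries labelled bbx14-1 and 104725 ± 1906 in wild type. LHCA1 followed at 70623 ± 5653 in the libraries labelled bbx14-1 against 68799 ± 1156 in wild type. LHCA2 came next, with means of 47317 ± 6028 and 44980 ± 1687 for the same groups.

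These 3 levels form 2 steps of the same size, since LHCA4 was 1.51 times LHCA1 and LHCA1 was 1.51 times LHCA2 over the 6 libraries, with no overlap of the ranges at either step. LHCA3 had 44456 ± 3982 normalized counts per kb in the libraries labelled bbx14-1 and 42373 ± 886 in wild type. LHCA2 averaged 1.06 times LHCA3 per kb, and their ranges over libraries overlapped, although LHCA2 was above LHCA3 within 6 of 6 libraries. Before division by exon length, LHCA3 had more normalized counts than LHCA2 in every library. Their order thus rested on the annotated exon lengths, 1408 bases for LHCA2 and 1625 for LHCA3. LHCA2 reads from its shared stretches may also be missing, so its ratios to LHCA1 and LHCA3 are uncertain. A drop of 32.3 times separated LHCA3 from LHCA5, which had 1375 ± 95.7 and 1313 ± 91.6 normalized counts per kb. LHCA5 was in turn 2.54 times LHCA6, which had 582 ± 36.3 under the bbx14-1 label and 477 ± 36.2 in wild type (SD, n = 3 each throughout).

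Among 18814 nuclear genes ranked by level per kb, LHCA4 stood between rank 2 and rank 4 in every library and LHCA1 between rank 8 and rank 10. LHCA2 stood between rank 15 and rank 18 and LHCA3 between rank 16 and rank 19. LHCA5 stood between rank 544 and rank 654, and LHCA6 between rank 1643 and rank 2374. The 6 genes together made up 3.04% ± 0.0612 of the nuclear normalized counts in the libraries labelled bbx14-1 and 2.97% ± 0.0624 in wild type (SD, n = 3 each), with overlapping ranges between 2.90% and 3.10%.

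Within the family, LHCA4 supplied 39.2% of the summed level per kb in the libraries labelled bbx14-1 and 39.9% in wild type, and LHCA1 supplied 26.2% in both. LHCA2 supplied 17.5% and 17.1%, and LHCA3 supplied 16.5% and 16.1%. The minor members were a small part, 0.510% and 0.500% for LHCA5 and 0.216% and 0.182% for LHCA6.

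**Figure D3:**
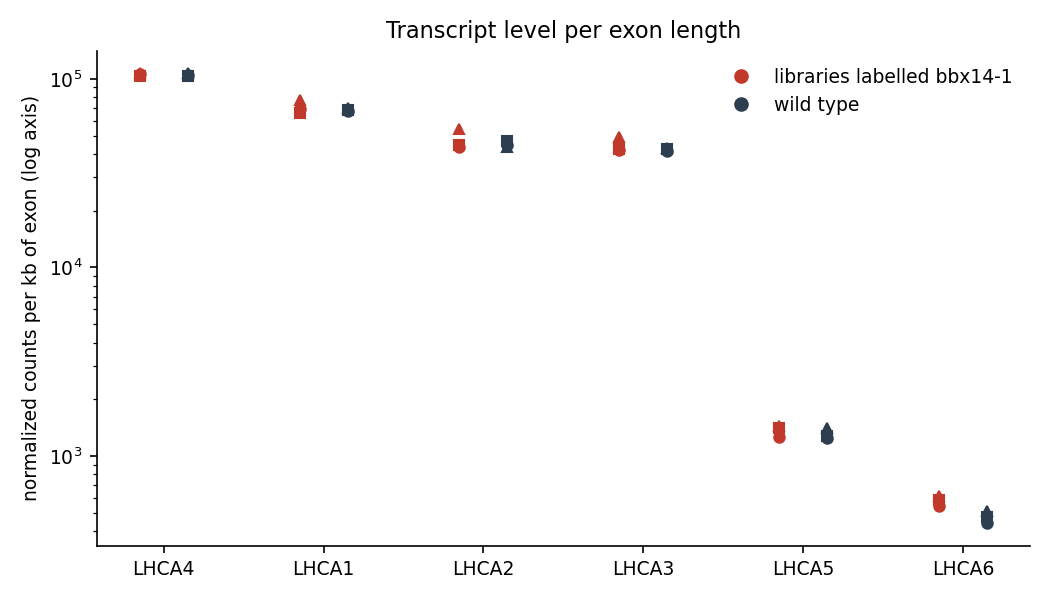
Normalized counts per kb of exon (y axis, log scale) for the 6 members in order of level (x axis), with 1 point per library; libraries labelled bbx14-1 are left of wild type. The 4 genes of the crescent lie at 41452 or above in every library, and LHCA5 and LHCA6 lie at 1443 or below.

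Ratios within a library do not depend on its size factor. The heterodimer partners LHCA4 and LHCA1 had a ratio of levels per kb of 1.53, 1.57 and 1.39 in the libraries labelled bbx14-1 and 1.54, 1.4999 and 1.53 in wild type. The groups overlapped, and the lowest ratio was that of bbx14-1 replicate 3. The other pair, LHCA3 over LHCA2, averaged 0.942 ± 0.0336 in the libraries labelled bbx14-1 and 0.943 ± 0.0464 in wild type (SD, n = 3 each), also with overlap.

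For the minor pair the ratios of the groups did not overlap. LHCA5 over LHCA6 was 2.33, 2.41 and 2.34 in the libraries labelled bbx14-1, against 2.82, 2.68 and 2.76 in wild type. All 3 bbx14-1 ratios were below all 3 wild-type ratios, with means of 2.36 ± 0.0418 and 2.75 ± 0.0671 (SD, n = 3 each). The antenna sum over the summed level of the 12 nuclear photosystem I subunit genes, which encode the small subunits of the core, was 1.295, 1.302 and 1.32 in the libraries labelled bbx14-1 and 1.59, 1.46 and 1.43 in wild type. These groups did not overlap either, with means of 1.31 ± 0.0122 and 1.49 ± 0.0888 (SD, n = 3 each). The antenna sum over the summed photosystem II antenna genes overlapped, with 0.324, 0.335 and 0.301 under the bbx14-1 label against 0.339, 0.325 and 0.344 in wild type. Of the 15 genes in that photosystem II sum, LHCB1.5 was listed at 0, so the level of this ratio is uncertain. Differences between these ratios were not tested. Of single genes, 21.0% had groups without overlap, and the share among ratios was not measured. The LHCA5 over LHCA6 ratio is not separate from the LHCA6 values, whose groups did not overlap either.

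**Figure D4:**
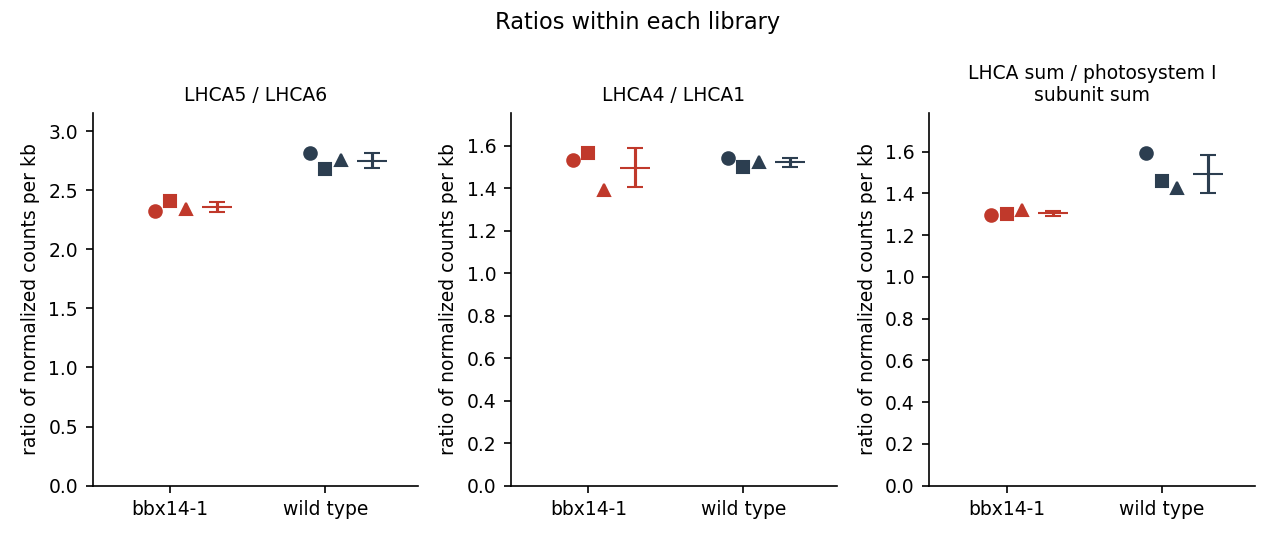
Ratios of normalized counts per kb (y axis, from 0) in the 3 libraries labelled bbx14-1 and the 3 wild-type libraries (x axis), with mean ± SD beside the points. LHCA5 over LHCA6 and the antenna sum over the photosystem I subunit sum are lower in every library labelled bbx14-1, and LHCA4 over LHCA1 overlaps.

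Some of the subunit genes in that ratio passed the test. Of the 12 nuclear photosystem I subunit genes tested, 3 rose and 0 fell in the libraries labelled bbx14-1, while 2.51% of all genes rose. A positive fold change was found for 11 of the 12 and for 50.5% of all genes. The 12 had a median of 0.21 on the log2 scale (0.13 under quantile normalization). PSAD2, a subunit at the ferredoxin docking site, had 11283, 10589 and 11904 normalized counts in the libraries labelled bbx14-1 and 7941, 8993 and 8713 in wild type (log2 fold change 0.40; limma, adjusted p = 0.00798). PSAG, a membrane subunit on the antenna side next to LHCA1, had 5570, 7223 and 5332 in the libraries labelled bbx14-1 against 3984, 4637 and 4363 in wild type (0.47; limma, adjusted p = 0.00642). PSAH2, a subunit at the docking site for mobile photosystem II antenna, had 9923, 9925 and 9919 under the bbx14-1 label against 6672, 7116 and 7960 in wild type (0.46; limma, adjusted p = 0.00225).

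In all 3 genes, named because they were called on these same values, every library labelled bbx14-1 was above every wild-type library. Of the 12 subunit genes, 5 were separated in that direction, as were 10.4% of all genes. The calls of PSAD2 (limma, adjusted p = 0.0889) and PSAG (0.0705) were lost without wild-type replicate 1, that of PSAG (0.0519) without bbx14-1 replicate 2, and all 3 without limma's variance trend. PSAD2 overlaps a neighbour on the same strand, and PSAG and PSAH2 overlap one on the opposite strand, which the counting may not separate. LHCA1 over PSAG was 9.71, 7.10 and 11.2 in the libraries labelled bbx14-1 and 13.3, 11.6 and 12.5 in wild type, without overlap. This ratio is not separate from the PSAG values, whose groups did not overlap either, while LHCA1 itself was at 0.035 on the log2 scale. LHCA3 over PSAK, its neighbour in the complex, overlapped, and PSAK was not called (limma, adjusted p = 0.289).

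**Figure D5:**
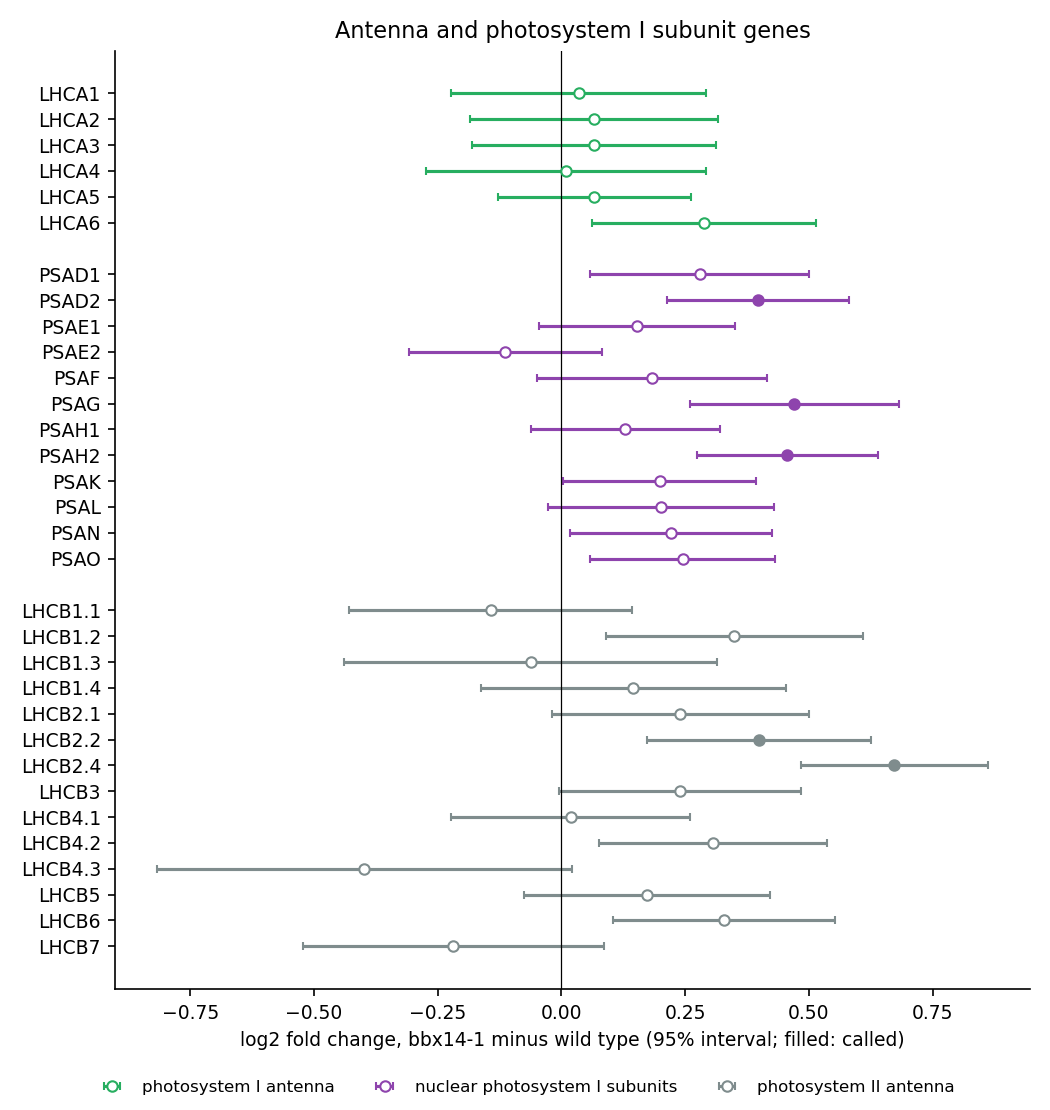
Log2 fold change, bbx14-1 minus wild type (x axis), with its 95% interval from limma for the 6 photosystem I antenna genes, 12 nuclear photosystem I subunit genes and 14 photosystem II antenna genes; filled points were called. No LHCA point is filled, against 3 subunit genes (PSAD2, PSAG and PSAH2) and LHCB2.2 and LHCB2.4.

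Of the 14 photosystem II antenna genes tested, 2 rose and 0 fell, while 2.51% of all genes rose. Of the 14, 10 were positive, as were 50.5% of all genes, and the median of the 14 was 0.21. LHCB1.5, also on the list, was at 0 and was not tested. LHCB2.4 was higher by 0.67 on the log2 scale (limma, adjusted p = 4.93e-05) and LHCB2.2 by 0.40 (limma, adjusted p = 0.0342). Under quantile normalization 8 were positive and the median was 0.065. LHCB2.4 and LHCB2.2 encode trimeric light-harvesting complex II proteins and belong to a group of similar copies between which reads may be split. The call of LHCB2.4 was lost without limma's variance trend (limma, adjusted p = 0.101). The call of LHCB2.2 was lost under 8 of 16 alternatives, and over all 16 its value ran from 0.33 to 0.46. Replicate 3 of the bbx14-1 label was the highest library for 11 of the 14 genes tested and for 6 of the 12 photosystem I subunit genes. It was the highest for 17.6% of all genes.

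The partners of the antenna in assembly passed no test. Of the 6 nuclear photosystem I assembly genes, 0 were called by limma or voom and 0 had an unadjusted p under 0.05, with 2 positive fold changes and a median of -0.12. The most abundant were HCF101, an iron-sulfur carrier for photosystem I, at 0.047, and PSA2, a lumenal assembly factor, at -0.19. Of the 5 genes that deliver light-harvesting proteins to the thylakoid, 0 were called by limma or voom and 1 had an unadjusted p under 0.05. Of the 5, 3 were positive, up to 0.33, with a median of 0.24, and 2 had every library labelled bbx14-1 above every wild-type library. Over all genes, 16.7% had an unadjusted p under 0.05 and 10.4% had groups separated in that direction. The most abundant were both negative: ALB3, the membrane insertase for antenna proteins, was at -0.082, and cpSRP54, a subunit of the chloroplast signal recognition particle that carries them, at -0.11.

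The NDH complex, to which LHCA5 and LHCA6 connect photosystem I, has 17 nuclear genes on the list, 16 of them tested, since NDHL was listed at 0. Of these, 0 were called by limma or voom, and 3 had an unadjusted p under 0.05, as had 16.7% of all genes. A negative fold change was found for 12 of the 16, while 50.5% of all genes had a positive one. The 16 had a median of -0.11. PNSB1 and PNSB5, the most abundant, are subunits of the part of the complex beside photosystem I and had log2 fold changes of -0.20 (limma, adjusted p = 0.246) and 0.010. LHCA6, at 0.29, thus had the opposite sign to most genes of this complex, and none of these differences passed the test. GLK1 and GLK2, paralogous activators of nuclear photosynthesis genes, had log2 fold changes of -0.086 (limma, adjusted p = 0.801) and 0.20 (limma, adjusted p = 0.465). GLK2 was at 0.058 without bbx14-1 replicate 3 and at 0.35 without wild-type replicate 2.

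Markers of the tissues in a seedling were read beside these values. Of 6 leaf mesophyll markers, RBCS2B rose and 0 fell, and their summed level ran from 309697 to 402674 normalized counts in the libraries labelled bbx14-1 and from 300929 to 348354 in wild type. Of 3 epidermis, 1 guard cell and 5 root markers tested, 0 were called, and no marker was at 0 in every library. Of 3 seed markers tested, CRC fell, and the seed sum ran from 49.6 to 62.3 in the libraries labelled bbx14-1 and from 107 to 594 in wild type. Over all genes, 2.51% rose and 2.14% fell. The part of these marker differences in the antenna values was not tested.

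Across the 6 libraries the likeness between members was uneven. The highest Pearson r was that of the partners LHCA2 and LHCA3, 0.913, which was -0.0797 without the 2 libraries farthest from the median. For every pair these were bbx14-1 replicates 2 and 3, the farthest in the mean of LHCA1 to LHCA4. The Spearman rank correlation of LHCA2 and LHCA3 was 0.314. LHCA3 and LHCA5, with an r of 0.683 and then 0.929, had the highest Spearman value, 1.0. LHCA1 and LHCA3 had an r of 0.906, which was 0.788 without the 2 farthest. The partners LHCA1 and LHCA4 had an r of 0.740, which was 0.721 without them, while LHCA2 and LHCA4 had 0.258 and then -0.967. LHCA1 and LHCA2 had an r of 0.826, which was -0.535 without the 2 farthest. LHCA5 and LHCA6 had an r of 0.764, which was 0.402 without the 2 farthest. With the mean of LHCA1 to LHCA4, LHCA5 had an r of 0.522 and LHCA6 one of 0.545. These are descriptions over 6 libraries that share their size factors, or over those left without the 2 farthest.

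The 5 genes among 18999 whose pattern was most like the mean of LHCA1 to LHCA4 were MYB56 (r = 0.984), AT4G36980 (0.984), AT5G65990 (0.983), AT1G03350 (0.979) and HB-8 (0.976), and 25 genes had an r of at least 0.95. The mean antenna profile stood at 0.15 in bbx14-1 replicate 3 and between -0.048 and -0.013 in the other 5 libraries on the centred log2 scale. Without bbx14-1 replicates 2 and 3, the farthest, r was 0.627 for MYB56, 0.485 for AT4G36980, 0.800 for AT5G65990, 0.612 for AT1G03350 and 0.767 for HB-8. The likeness therefore rested largely on those libraries, and MYB56, a MYB transcription factor gene, had no more than 22 reads in any library.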

How the data were processed

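RNA was measured in 6 rRNA-depleted, strand-specific libraries, 3 labelled bbx14-1 and 3 wild type, grouped by the genotype label. The deposited values are normalized counts per gene: the authors divided read counts by size factors. Tools in the submitters' processing notes are DESeq2, featureCounts, TopHat2 2.1.1, FastQC and Trimmomatic, and the build is TAIR10. Not given in the sources used here are the annotation release, the strand setting and how multi-matching reads were counted. Dividing by each library's smallest value gave whole reads (tolerance 0.01) for 100% of the values above 0; a floor of 3 reads is 2.40 to 3.77 normalized counts. The members and gene lists were chosen with earlier results of these data known.

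The test was limma 3.58.1 (R version 4.3.3) with a variance trend, run on log2(normalized count + 1) for genes averaging at least 10 normalized counts. P-values were two-sided, with Benjamini-Hochberg adjustment across every gene tested. This scale understates changes of low genes. The fit was tested on simulated data. Positions, exon lengths and sequences came from TAIR10.1 (RefSeq), whereas the notes name TAIR10; identity came from pairwise alignments in Biopython 1.88. Named genes were the 6 members, BBX14, the called members of each list or else its 2 most abundant, and the 5 genes nearest in pattern; other genes were named because they overlap or resemble a member, and were chosen after their values were seen. Lists of plastid genes were not used, since the files do not pair their identifiers with names. No pair of libraries of a group agreed within sampling noise over all genes, plastid genes included (chi-square per degree of freedom at least 7.78). Alternatives changed the pseudocount (0.5 or 10), the filter (none, or a mean of at least 50), the scaling, the variance model, the replicate block and the libraries.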

Additional observations from a re-analysis of the deposited data

How the results depend on the processing

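The count of LHCA members called was 0 under all 16 alternatives run. Over all genes, 883 were called as reported, 28 without the variance trend, and 529 to 762 when 1 library was left out, namely 529 when wild-type replicate 1 was dropped and 577 when replicate 3 of that group was; the other alternatives gave 828 to 939. Log2 fold changes with 1 library left out ran from -0.027 to 0.085 for LHCA1, -0.036 to 0.13 for LHCA2, -0.0069 to 0.11 for LHCA3, -0.0021 to 0.026 for LHCA4, 0.029 to 0.13 for LHCA5 and 0.23 to 0.34 for LHCA6. Quantile normalization turned LHCA1 to -0.16, LHCA3 to -0.10 and LHCA4 to -0.073; the cause was not tested. The adjusted p of LHCA6 lay between 0.139 and 0.428. Leaving out 1 library also turned PNSB5 (-0.076 to 0.085), GLK1 (-0.25 to 0.034), MYB56 (-0.18 to 0.32), AT4G36980 (-0.029 to 0.13), AT5G65990 (-0.17 to 0.32), AT1G03350 (-0.041 to 0.21) and HB-8 (-0.0058 to 0.15). No scaling moved the median of all genes by over 0.1. Same-numbered libraries did not deviate together (r = 0.042, 0.017 and -0.030), and the number was not used as a pairing. Deviations from a mean of 3 libraries cannot exclude a shared batch. With a replicate block 915 genes and 0 members were called, and LHCA6 had an adjusted p of 0.174 (limma). The planned edgeR and DESeq2 alternatives were not run, and limma's voom on recovered reads, chosen after seeing the data, called 898 genes. LHCA6 had 441 reads in its shallowest library, where counting error was 4.76%.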
